A study of Rattus norvegicus with 8 samples.

Results

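The 7 genes described here encode proteins by which heart muscle cells are usually recognised, and they were read in cultures of rat cardiac fibroblasts to see whether transcripts of cardiomyocytes were carried along. They were chosen by Ensembl ID, namely Myh6 (ENSRNOG00000025757), Myh7 (ENSRNOG00000016983), Tnnt2 (ENSRNOG00000033734), Actc1 (ENSRNOG00000008536), Nppa (ENSRNOG00000008176), Nppb (ENSRNOG00000008141) and Des (ENSRNOG00000019810), out of 21867 genes in the deposited table of estimated counts. All 7 were found, and all 7 passed edgeR's filter on low counts, as did 13849 genes in all. RNA was sequenced from 8 libraries of cells grown from neonatal Wistar Kyoto rat hearts, in 4 groups of 2 biological replicates. Cardiac fibroblasts (CF) were the starting cells and served as the healthy control. Myofibroblasts (MF) were made from such fibroblasts by continuous passaging in low-serum medium, and were not exposed to current. The remaining groups were myofibroblasts made in the same way and exposed for 72 h to direct current, either at 1 µA/cm2 (1 µA) or at 2 µA/cm2 (2 µA). The labels place the treated cells in standard medium with more serum, and the medium of the untreated MFs over the same hours is not stated, so current and medium cannot be told apart in the comparisons with MF. No purified cardiomyocytes were sequenced, and the labels do not say whether replicates were grown from different litters.

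Cardiomyocytes contract by sliding actin and myosin filaments in the sarcomere. Myh6 and Myh7 encode the alpha and beta cardiac myosin heavy chains, the faster and the slower motor, Tnnt2 encodes cardiac troponin T, which ties the calcium switch to the thin filament, and Actc1 encodes cardiac alpha-actin. Nppa and Nppb encode the natriuretic peptides ANP and BNP, hormones that atrial muscle and stretched ventricular muscle release. Des encodes desmin, the intermediate filament of muscle cells, which is also found in smooth muscle and in some myofibroblasts. Fibroblast cultures from the neonatal heart are commonly separated from cardiomyocytes by their faster attachment to plastic, and cardiomyocytes divide little after birth. Actc1, Nppb and Des can also be made by cells that are not cardiomyocytes.

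Nppa and Nppb are neighbours on rat chromosome 5, and Myh6 and Myh7 are neighbours on chromosome 15. The 250 bases before the annotated start of Nppa, Nppb and Tnnt2 are shown because each of these windows held matches to at least 2 motifs known from heart promoters. They were taken by symbol from RefSeq (GRCr8, not the rn6 build of the files). Capitals mark TATAAA, the letters of a TATA box, CATTCC, the core bound by TEAD factors, and GATAA, the core bound by GATA factors. Each was searched on both strands, whatever its distance from the start.
Nppa, chr5:163711934-163712183, plus strand: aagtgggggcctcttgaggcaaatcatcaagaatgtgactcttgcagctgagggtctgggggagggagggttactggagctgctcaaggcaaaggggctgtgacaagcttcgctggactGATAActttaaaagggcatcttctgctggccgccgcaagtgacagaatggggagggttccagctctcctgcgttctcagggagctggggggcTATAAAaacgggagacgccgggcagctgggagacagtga
Nppb, chr5:163699758-163700007, plus strand: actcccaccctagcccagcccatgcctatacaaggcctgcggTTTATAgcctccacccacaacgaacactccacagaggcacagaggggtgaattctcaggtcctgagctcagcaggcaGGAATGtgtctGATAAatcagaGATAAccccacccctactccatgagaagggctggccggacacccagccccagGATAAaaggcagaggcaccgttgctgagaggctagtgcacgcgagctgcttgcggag
Tnnt2, chr13:49818873-49819122, plus strand: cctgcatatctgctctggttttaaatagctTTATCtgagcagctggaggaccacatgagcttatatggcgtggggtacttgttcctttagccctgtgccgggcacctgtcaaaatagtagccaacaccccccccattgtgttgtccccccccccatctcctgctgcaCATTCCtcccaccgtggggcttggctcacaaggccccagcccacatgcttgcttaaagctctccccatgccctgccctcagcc

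All 7 genes had a window, 8 windows in all since Tnnt2 has 2 annotated starts. GATAA was found in 3 of the 8, against 23.5% of 33469 windows of the same length in the rat genome. The Nppb window held it at 3 places, and the Nppa window held it once, from 131 to 127 bases before the start. CATTCC was found in 3 windows, those of Myh6, Nppb and the upstream start of Tnnt2, against 12.1% of all windows. TATAAA was found in the windows of Nppa and Nppb, against 12.9%. In Nppa it lay on the gene's strand, from 39 to 34 bases before the start. In Nppb it lay on the other strand, from 208 to 203 bases before the start. The CArG box, the motif bound by serum response factor, was searched as CCWWWWWWGG, where W is A or T. This full pattern was in none of the 8 windows and in 1.5% of all windows, and near matches to it were not searched. A match is a run of letters and was not measured as a site, and the motifs were chosen with the expression values known.

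The libraries held from 26473085 to 37903701 estimated counts, a depth at which all 7 genes were far above the count at which a gene could be missed, with from 257 estimated counts (Nppb in 1 µA replicate 1) upward in every library. The replicates of each group differed by more than sampling noise. The chi-square per gene was 16.5 in MF to 117 in CF over the tested genes. For the 7 genes it was 35.1 in MF to 2306.5 in CF, so each library was counted as a sample of its own. Together the 7 genes took 0.201% of the estimated counts in CF replicate 1 (95% exact binomial interval 0.199% to 0.202%) and 0.351% in CF replicate 2 (0.349% to 0.353%). In MF they took 0.108% and 0.110%. After microcurrent they took 0.0504% and 0.0594% at 1 µA and 0.0554% and 0.0721% at 2 µA. Transcripts of the 7 genes were thus present in every culture, most in CF and least in the treated cells, and the 3 kinds of cells did not overlap. The intervals cover counting error only, and in bulk RNA fewer cardiomyocytes and less RNA of these genes per cell cannot be told apart.

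**Figure D1:**
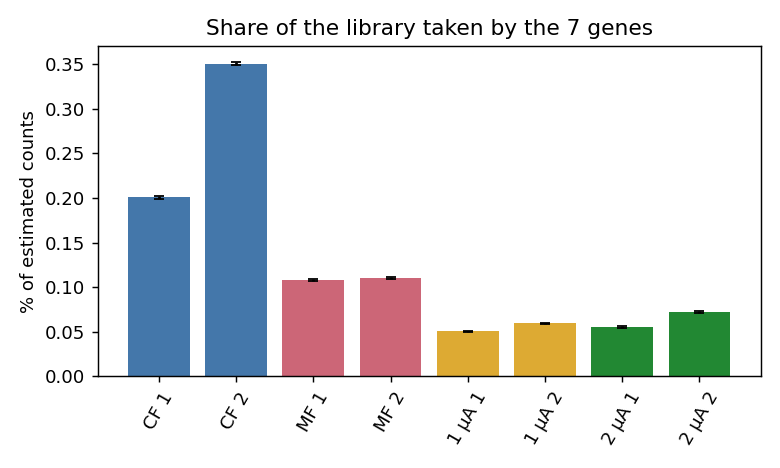
Bars give the percent of each library's estimated counts that fell on the 7 cardiomyocyte genes, with exact binomial 95% intervals as error bars, for the 2 libraries each of CF, MF, 1 µA and 2 µA. The CF bars stand at 0.201% and 0.351%, the MF bars at 0.108% and 0.110%, and the 4 treated bars between 0.0504% and 0.0721%.

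The same order held for each gene taken singly. In CPM, the estimated counts scaled to library size by TMM, both CF libraries lay above the other 6 for 7 of 7 genes, against 13.8% of all genes tested. Both MF libraries lay above the 4 treated ones for 7 of 7, against 26.6%. The full order without overlap was found in 2.82% of all genes.

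Myh6 had 190 and 359 CPM in the CF libraries, 47.3 and 35.2 CPM in MF, 16.3 and 15.2 CPM at 1 µA and 17.4 and 20.0 CPM at 2 µA. The group means were 274 ± 119 CPM in CF, 41.3 ± 8.49 CPM in MF, 15.7 ± 0.762 CPM at 1 µA and 18.7 ± 1.88 CPM at 2 µA (SD, n = 2 each). As a ratio, the alpha heavy chain differed most of the 7 genes between fibroblasts and each other group.

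Myh7 had 389 and 674 CPM in CF, 183 and 147 CPM in MF, 67.3 and 72.7 CPM at 1 µA and 61.4 and 107 CPM at 2 µA. Both 1 µA libraries fell between the 2 µA libraries, of which replicate 2 was the higher. For the beta heavy chain the current densities therefore overlapped, while CF, MF and the treated cells did not.

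Tnnt2 had 717 and 1156 CPM in CF, 455 and 511 CPM in MF, 231 and 267 CPM at 1 µA and 248 and 349 CPM at 2 µA. Cardiac troponin T kept the order of the myosins, with smaller fold differences between CF and the other groups. Actc1 had 361 and 589 CPM in CF, 174 and 169 CPM in MF, 66.6 and 93.2 CPM at 1 µA and 72.5 and 105 CPM at 2 µA. The MF libraries were the closest pair for cardiac actin, and the treated pairs overlapped.

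Nppa had 248 and 694 CPM in CF, 165 and 168 CPM in MF, 75.2 and 95.9 CPM at 1 µA and 98.4 and 107 CPM at 2 µA. The CF libraries stood far apart for ANP, whereas both 2 µA libraries lay just above both 1 µA libraries. Nppb, with the fewest counts of the 7, had 21.3 and 55.9 CPM in CF, 20.1 and 19.7 CPM in MF, 8.64 and 11.1 CPM at 1 µA and 11.3 and 11.04 CPM at 2 µA. CF replicate 1 was thus close to the MF libraries for BNP, and CF stood apart from MF mainly through replicate 2.

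Des had 91.4 and 134 CPM in CF, 47.2 and 44.1 CPM in MF, 24.5 and 34.0 CPM at 1 µA and 30.4 and 28.6 CPM at 2 µA. Both 2 µA libraries of desmin fell between the 1 µA libraries.

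**Figure D2:**
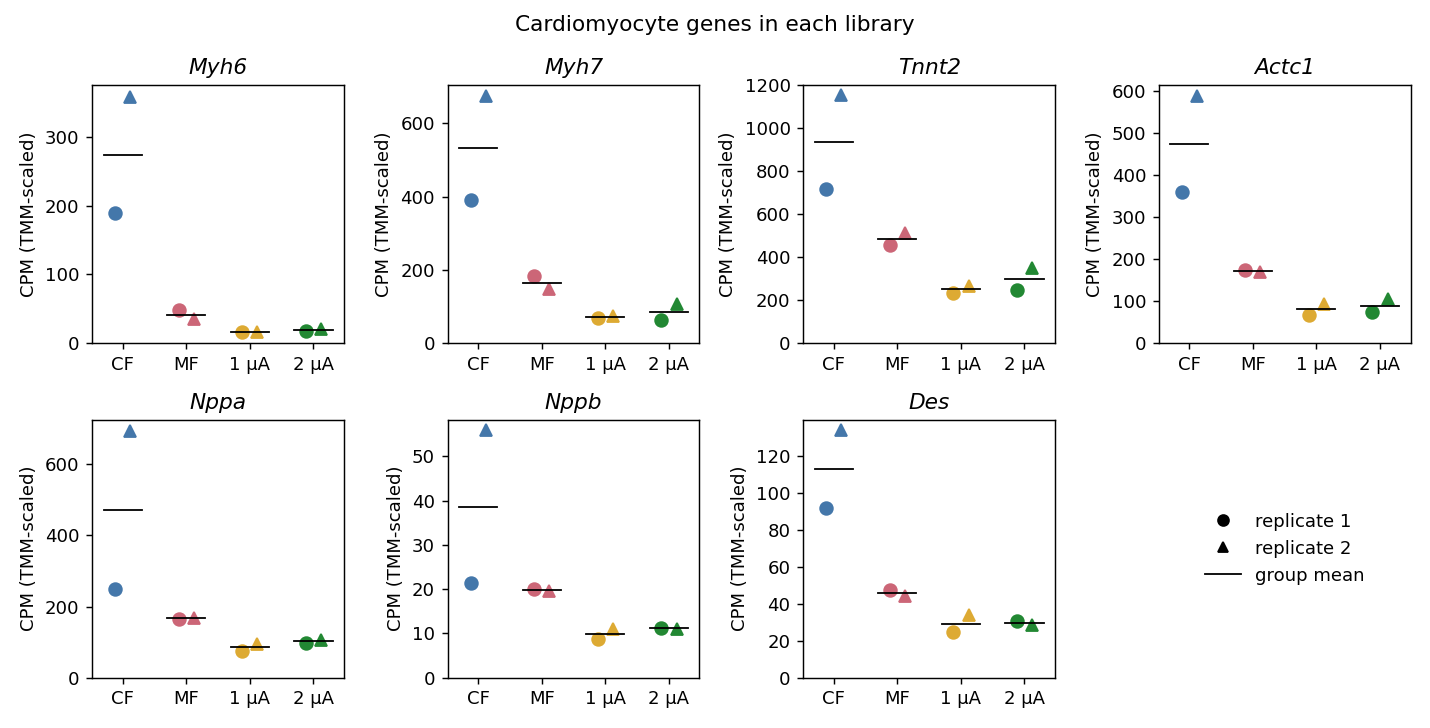
Each panel shows 1 gene, with TMM-scaled CPM on a linear axis from 0 and the groups CF, MF, 1 µA and 2 µA on the other axis, where circles are replicate 1, triangles replicate 2 and lines the group means. In every panel the CF libraries are highest and the treated libraries lowest, and CF replicate 2 lies above CF replicate 1, as in Nppa at 694 and 248 CPM.

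The CF libraries differed from each other in all 7 genes in the same direction. CF replicate 2 exceeded replicate 1 by 1.46 times in Des, by 1.61 to 1.89 times in the 4 sarcomere genes, by 2.63 times in Nppb and by 2.80 times in Nppa. Of all genes tested, 54% were higher in CF replicate 2, with a median ratio of 1.03, and 4.12% had a ratio as high as that of Nppa, 4.8% as that of Nppb, 9.99% to 14.2% as those of the 4 sarcomere genes and 17.5% as that of Des. In MF the ratio of replicate 2 to replicate 1 ran from 0.746 in Myh6 to 1.12 in Tnnt2.

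Between MF and CF, all 7 genes had lower means in MF, and 3 of the 4 sarcomere genes and desmin were called. At an adjusted p below 0.05 and a log2 fold change of at least 1 in size, 4 of the 7 genes were called lower in MF (Myh6, Myh7, Actc1 and Des), where 4.02% of all tested genes were called lower. The p-values came from quasi-likelihood F tests in edgeR on all 8 libraries and were adjusted over the 13849 genes by the Benjamini-Hochberg method. Percentages of genes called lower count that direction alone, whereas the counts of genes called over all genes, given below, take both directions. Myh6 fell 6.65-fold, a log2 fold change of -2.73 ± 0.31 (SE, adjusted p = 0.00368 from edgeR), and 121 of the tested genes had a lower log2 fold change. Myh7 fell 3.23-fold (log2 fold change -1.69 ± 0.34, adjusted p = 0.0199 from edgeR), Actc1 fell 2.76-fold (-1.47 ± 0.29, adjusted p = 0.0199 from edgeR) and Des fell 2.47-fold (-1.30 ± 0.22, adjusted p = 0.0115 from edgeR).

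The 3 other genes had lower means in MF but were not called. Tnnt2 was 1.94-fold lower, just under the fold threshold (log2 fold change -0.96 ± 0.26, adjusted p = 0.0461 from edgeR). Nppa was 2.83-fold lower but missed the p threshold (95% interval from -2.51 to -0.49 on the log2 scale, adjusted p = 0.0531 from edgeR). Nppb was 1.94-fold lower (-0.95 ± 0.40, adjusted p = 0.140 from edgeR), with a 95% interval from -1.91 to -0.00097 on the log2 scale. The median log2 fold change of the 7 genes was -1.47, against -0.03 over all tested genes.

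A single CF library decided how far the peptide genes differed. Without CF replicate 1, Nppa was at a log2 fold change of -2.04 and Nppb at -1.48, while Myh6 was at -3.10. Without CF replicate 2, Nppa was at -0.58 and Nppb at -0.10, while Myh6 was at -2.20. Without MF replicate 1 or 2, Myh6 alone of the 7 was called, and the count over all genes went from 1438 to 336 or 370. The log2 fold changes moved little in these fits, to -1.49 and -1.44 in Actc1 and to -1.35 and -1.25 in Des.

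The fitted folds differed among the genes, though the difference between genes was not tested. The 95% interval of the fold by which Myh6 was lower in MF ran from 3.99 to 11.1, and that of Tnnt2 from 1.26 to 2.97. Within each library, Myh7 estimated counts were 2.05 and 1.88 times those of Myh6 in CF, 3.86 and 4.18 times in MF, 4.14 and 4.78 times at 1 µA and 3.53 and 5.34 times at 2 µA. The ratio of beta to alpha heavy chain was thus lower in both CF libraries than in the other 6, whereas MF and treated libraries overlapped. Tnnt2 counts were 3.78 and 3.22 times those of Myh6 in CF and from 9.63 to 17.5 times in the other 6 libraries. Nppa counts were 11.7 and 12.4 times those of Nppb in CF and from 8.21 to 9.66 times elsewhere. These ratios are read between libraries and not as levels of 1 gene against another, since no transcript lengths were used, and no test was made of them. Myh6 and Myh7 are close copies of each other, and how the authors' counting divided shared reads between them is uncertain, as it is for Actc1 and the other actins.

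**Figure D3:**
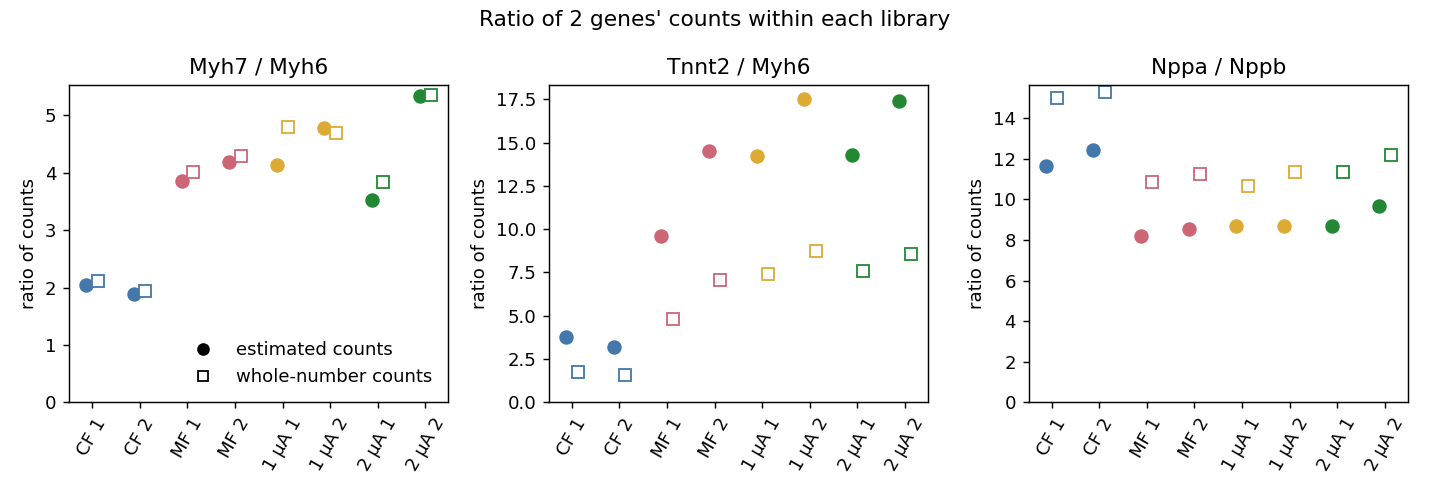
Each panel gives the ratio of the counts of 2 genes within each of the 8 libraries on a linear axis from 0, with filled circles from the estimated counts and open squares from the whole-number counts. For Myh7 over Myh6 the CF libraries lie at 2.05 and 1.88 and the other 6 between 3.53 and 5.34 in the estimated counts.

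After microcurrent the means of all 7 genes were lower again than in MF. Few of these differences passed the test in the fit of all 8 libraries. At 1 µA, Myh6 was the single gene called, 2.62-fold lower than in MF (log2 fold change -1.39 ± 0.30, adjusted p = 0.0444 from edgeR), where 2.27% of all tested genes were called lower. The other 6 genes had log2 fold changes from -1.24 in Myh7 to -0.64 in Des, with adjusted p-values from 0.0701 to 0.207 in edgeR. At 2 µA none of the 7 was called by edgeR, where 2.66% of all genes were called lower, and 5 of them had an unadjusted p below 0.05. Their log2 fold changes ran from -1.14 ± 0.30 in Myh6 (adjusted p = 0.0644 from edgeR) to -0.63 ± 0.22 in Des (adjusted p = 0.117 from edgeR). DESeq2 called Myh6, Myh7 and Actc1 lower at 1 µA, 3 of the 7, and 1 lower at 2 µA. Over all genes, DESeq2 called 941 in place of 543 at 1 µA and 1033 in place of 640 at 2 µA. With only the MF and 1 µA libraries in the fit, adjusted p-values of the 7 genes ran from 0.00236 (Myh7) to 0.0423 (Des) in edgeR. That fit called 4 of them, and 1164 in place of 543 over all genes. With only the MF and 2 µA libraries, edgeR called 1, and 839 in place of 640 over all genes. Myh7 (0.105) and Tnnt2 (0.0826) then had adjusted p-values above 0.05 in edgeR, and the rest ran from 0.0178 to 0.0462. Both current densities share the MF libraries.

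The mean of both treated groups, which rests on 4 libraries, gave 3 genes called lower than in MF, where 3.88% of all genes were called lower. Myh6 fell 2.40-fold (log2 fold change -1.27 ± 0.25, adjusted p = 0.0226 from edgeR), Myh7 fell 2.15-fold (-1.10 ± 0.28, adjusted p = 0.0427 from edgeR) and Actc1 fell 2.04-fold (-1.03 ± 0.24, adjusted p = 0.0365 from edgeR). Tnnt2 was 1.77-fold lower, under the fold threshold (adjusted p = 0.0480 from edgeR). Nppa, Nppb and Des were 1.78-, 1.90- and 1.55-fold lower with adjusted p-values of 0.157, 0.116 and 0.0604 in edgeR. With CF left out of the fit, their adjusted p-values were 0.00549, 0.00558 and 0.0232 in edgeR, and their folds stayed under the threshold. Over all genes, 1109 were called in that fit. None of the 3 calls was kept without 1 µA replicate 1, 1 µA replicate 2, 2 µA replicate 1, MF replicate 1 or MF replicate 2, where the count over all genes went from 936 to between 17 and 777. In these fits the log2 fold changes ran from -1.46 to -1.04 in Myh6, from -1.25 to -0.93 in Myh7 and from -1.16 to -0.91 in Actc1. The call of Myh6 at 1 µA against MF was lost without any of the MF, 1 µA or 2 µA libraries, with log2 fold changes from -1.59 to -1.16.

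**Figure D4:**
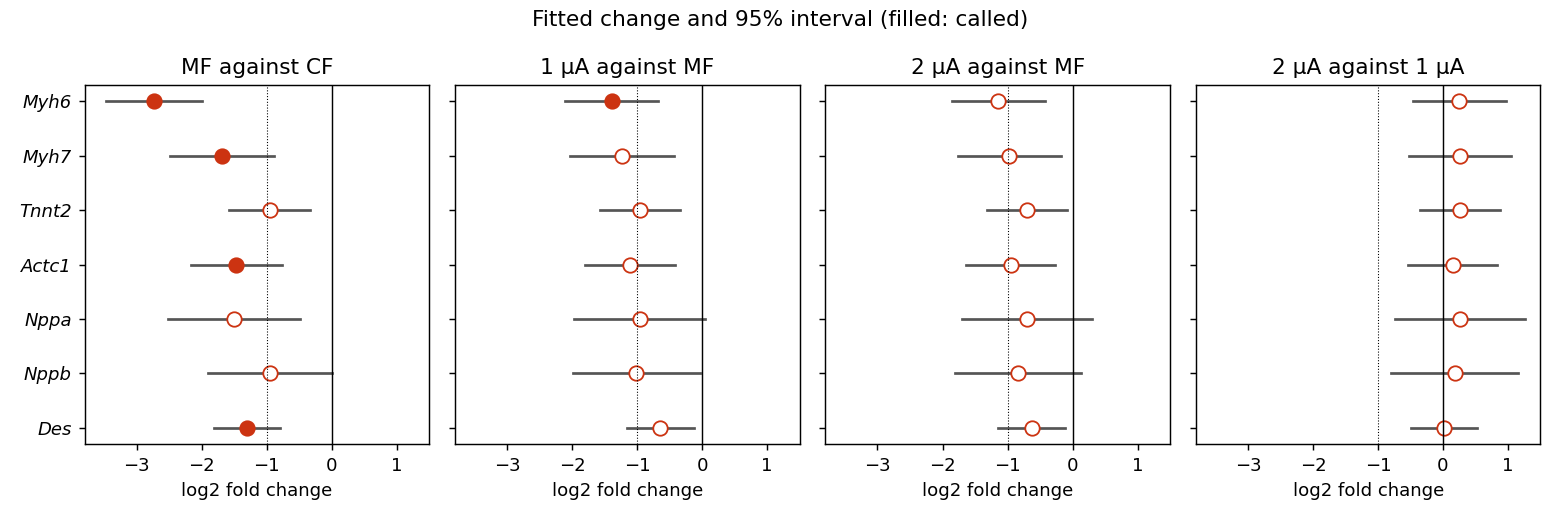
Points give the fitted log2 fold change of each gene and lines its 95% interval, for MF against CF, each current density against MF and 2 µA against 1 µA, with filled points for genes called and a dotted line at the threshold of -1. Filled points are Myh6, Myh7, Actc1 and Des in MF against CF and Myh6 at 1 µA, and every interval of 2 µA against 1 µA spans 0.

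Against CF the gap was wider. At 1 µA all 7 genes were called lower than in CF, where 2.69% of all tested genes were called lower, and at 2 µA 6 of 7 were, where 2.13% were. Myh6 was 17.4-fold lower at 1 µA (log2 fold change -4.12 ± 0.33, adjusted p = 0.00303 from edgeR) and 14.7-fold lower at 2 µA (-3.87 ± 0.33, adjusted p = 0.00391 from edgeR), and 45 and 51 of the tested genes had lower log2 fold changes. Myh7 was 7.60-fold lower at 1 µA and 6.32-fold lower at 2 µA (adjusted p = 0.00775 and 0.0114 from edgeR). Actc1 and Nppa were 5.94- and 5.51-fold lower at 1 µA and 5.35- and 4.60-fold lower at 2 µA. All 7 genes lay further below CF without CF replicate 1 than without CF replicate 2, the peptide genes by the widest margin. Without CF replicate 1 and without CF replicate 2, the log2 fold changes of Nppa were -3.01 and -1.54 at 1 µA and -2.74 and -1.27 at 2 µA, and those of Nppb were -2.49 and -1.11 at 1 µA and -2.30 and -0.93 at 2 µA.

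Tnnt2, Nppb and Des were 3.76-, 3.91- and 3.85-fold lower at 1 µA than in CF. At 2 µA, Tnnt2 and Des fell 3.14- and 3.82-fold, and Nppb, 3.45-fold lower, missed the threshold (adjusted p = 0.0504 from edgeR). Without 1 µA replicate 1 or 2, 1 or 3 of the 7 genes were called at 1 µA against CF, with 138 or 233 in place of 901 over all genes, while Myh7 stood at a log2 fold change of -2.87 or -2.98. With only the 2 µA and CF libraries in the fit, edgeR called none of the 7 genes, with adjusted p-values of 0.0775 for Myh6 and Des. Over all genes, that fit called 2 in place of 695. DESeq2 called 7 of the 7 genes at 2 µA against CF, and 1075 over all genes. These comparisons share the CF libraries.

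No difference was called between 2 µA and 1 µA in any of the 7 genes, where 0.00722% of all genes were called in either direction, and none had an unadjusted p below 0.05 in edgeR. DESeq2 called none either. The log2 fold changes ran from 0.01 in Des to 0.27 in Myh7. The 95% intervals ran from -0.46 to 0.96 for Myh6, from -0.52 to 1.05 for Myh7 and from -0.74 to 1.26 for Nppa on the log2 scale, so changes within those bounds were not excluded with 2 libraries a group.

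The deposited vst values, log2 values in which DESeq2 evens out the variance, gave the same order. Myh6 lay at 12.9 ± 0.655 in CF, 10.4 ± 0.304 in MF, 9.08 ± 0.0408 at 1 µA and 9.31 ± 0.132 at 2 µA (SD, n = 2 each). Nppa lay at 13.7 ± 1.000 in CF and 12.3 ± 0.0499 in MF, and Nppb at 10.2 ± 0.856 and 9.36 ± 0.0325, so that for the peptide genes the gap between CF and MF was close to the spread of the CF pair.

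Over the 8 libraries the vst values of the 7 genes ran closely together, with Pearson correlations from 0.939 (Myh6 and Nppb) to 0.994 (Myh7 and Actc1). Among the other 13848 tested genes, the one most like Nppa after 2 unnamed genes was Nppb, at 0.992. Actc1 was the 7th most like Myh7 and the 6th most like Tnnt2. Of all tested genes, 83 (for Nppb) to 165 (for Myh6) had a correlation of at least 0.95 with the gene, and 4 to 6 of the other 6 genes were among them. The highest correlations, from 0.993 to 0.998, belonged to genes outside the 7, which the tables do not name. The correlations describe 8 libraries that fall into groups, and the libraries are shared by all genes.

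The separate matrix of whole-number counts listed all 7 genes and gave like changes. Between MF and CF the log2 fold changes were -2.75 for Myh6, -1.70 for Myh7, -1.48 for Actc1, -1.31 for Des, -1.52 for Nppa, -1.05 for Nppb and -0.93 for Tnnt2. Nppa was called there (adjusted p = 0.0482 from edgeR), which made 5 genes, with 1317 called over all genes in either direction. The whole-number counts of Tnnt2 were 36.0% to 40.5% of its estimated counts, whereas those of the other 6 genes were 64.8% to 87.3%. The gap between the tables thus changed the level of Tnnt2 and moved its fold change little.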

How the data were processed

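Estimated counts were deposited for each gene; the authors quantified reads by salmon against rn6 transcripts and imported them by tximeta. From these the authors made normalized values (a signal, estimated counts divided by DESeq2 factors that differ between genes and libraries) and vst values (log2). A second deposited table holds whole-number counts (13341 genes), and its counter is not given in the sources used here; the labels name fastp and STAR. All per-sample columns were used.

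Estimated counts were rounded and fitted with edgeR 4.0.16 (limma 3.58.1, R 4.3.3), with filterByExpr, TMM, robust quasi-likelihood F tests, 1 coefficient per group over 8 libraries (4 residual degrees of freedom) and Benjamini-Hochberg adjustment over 13849 genes. The SE was taken from the fold change and the square root of F, and 95% intervals used the fit's degrees of freedom. The fit was tested on simulated data. The p-values measure the spread between the 2 libraries of a group, pooled over the 4 groups and drawn toward that of other genes. A p-value for a treated group against MF thus includes the spread of the CF pair. The spread may be in part technical. Alternatives were DESeq2 1.42.0, RLE scaling, no filter, a minimum of 10 counts per library, the whole-number table, transcript length offsets, only the groups compared, a replicate block, adjusted p alone, and leaving out each library. Figures used Python 3.11.15 and matplotlib 3.10.9.

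The 7 genes and all lists were chosen with earlier results of these data known. The rule named all 7 genes and, for each, the 2 most correlated genes. Symbols came with the list of IDs. The tables and the RefSeq gene table (GRCr8) do not pair symbols with Ensembl IDs, so lists of further cardiomyocyte genes and of fibroblast, smooth muscle, endothelial, pericyte and leukocyte markers were not analysed here, the fibroblast label was not checked against markers, and the most correlated genes are not named.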

Additional observations from a re-analysis of the deposited data

How the results depend on the processing

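Over 17 alternative settings, the log2 fold changes of all 7 genes stayed negative in MF and in each current density against CF. They also stayed negative in each current density, and in the mean of both, against MF. Not all settings could turn a sign. Adjusted p alone reuses the main fold changes, and leaving out a library outside a comparison hardly moves them. In MF against CF, 104 of 119 values kept their side of the thresholds, 6 lost the call and 9 gained it. The cause of these changes was not tested, apart from fits with fewer libraries. At 1 µA against MF, the 1 called gene became 3 with DESeq2 and 4 with only the groups compared. At 2 µA against MF, 0 became 1 with DESeq2, with no filter and with only the groups compared. At 2 µA against CF, 6 became 0 with only the groups compared. When 1 library was left out, from 1 to 7 genes were called in MF against CF. Against MF, the ranges were 0 to 4 (1 µA), 0 to 1 (2 µA) and 0 to 3 (mean of both), and against CF they were 1 to 7 (1 µA) and 4 to 7 (2 µA). Over all genes, the counts in these fits ran from 336 to 1997 (MF against CF), 4 to 886 and 9 to 985 (1 µA and 2 µA against MF), 17 to 1101 (mean against MF), and 138 to 1191 and 292 to 1020 (1 µA and 2 µA against CF). A lone library was assumed to vary like the other groups. Between 2 µA and 1 µA, where no gene was called in any fit, the sign turned without 1 µA replicate 1 in Actc1 (-0.07) and Des (-0.20), without 2 µA replicate 1 in Des (-0.03), and without 2 µA replicate 2 in Actc1 (-0.14), Myh7 (-0.19) and Tnnt2 (-0.0058). With 1 library left out, the highest values were 0.42 in Actc1, 0.28 in Des, 0.61 in Myh7 and 0.49 in Tnnt2.

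Replicate numbers are shared across groups but mark no stated litter or day, and deviations of same-numbered libraries correlated from -0.249 to 0.321 over pairs of groups. With a replicate block, the comparison of MF with CF called 4 genes. The block gave 1 call at 1 µA against MF (Actc1 at -1.14, adjusted p = 0.0371 from edgeR, in place of Myh6 at 0.0671), 0 at 2 µA against MF, 3 for the mean, and 7 and 6 at 1 µA and 2 µA against CF. Over all genes it called 1279 in MF against CF, and 379 (1 µA), 485 (2 µA) and 821 (mean) against MF. Against CF it called 807 at 1 µA and 610 at 2 µA.

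Over all tested genes, the count called at 1 µA against MF was 543, 941 with DESeq2 and 1164 with only the groups compared; at 2 µA against CF it was 695, 1075 and 2; at 2 µA against MF it was 640 and 1033 with DESeq2. With no fold threshold, 2560 genes passed in MF against CF, and 968 (1 µA), 1097 (2 µA) and 2077 (mean) passed against MF. All 7 genes were measured with at least 257 estimated counts in every library. Between replicates, the chi-square per gene was 16.5 to 117 over the tested genes and 35.1 to 2306.5 over the 7.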
